A study of Homo sapiens with 47 samples.

Results

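The miR-193 and miR-365 clusters were followed through 5 mature miRNAs, hsa-miR-193a-3p, hsa-miR-193a-5p, hsa-miR-193b-3p, hsa-miR-193b-5p and hsa-miR-365a-3p, out of 1006 miRNA entries in a small RNA sequencing count table. The members were chosen by name, and the prefix for human (hsa) is left out from here on. A sixth name, miR-365b-3p, has the same mature sequence as miR-365a-3p and held identical counts in every library, so that entry stands for both. Each member's level is given in CPM, its counts relative to the library total after that total was corrected by TMM, edgeR's scaling on a trimmed mean of log ratios between libraries.

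A pair of human prostate cancer cell lines gave the libraries. PC-3 was derived from a bone metastasis and lacks the androgen receptor, and 22Rv1 (p22rv1 in the labels) was derived from a subline of the CWR22R xenograft and expresses that receptor. Growing cells were held for 24 h at 5, 2, 1, 0.5, 0.2 or 0% O2, and every O2 level had its own normoxia control in 95% air. Each of the 24 groups had 2 replicates, except that 1 library of the 22Rv1 normoxia control of the 0.2% level was used, which left 24 PC-3 and 23 22Rv1 libraries. No genetic change or drug was applied. The labels do not tell whether replicates came from separate cultures, so each p-value reflects only the spread among these libraries, and that spread may be technical.

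A miRNA hairpin gives a 5p and a 3p mature strand, and the bases 2 to 8 of a mature strand, the seed, do most of the pairing with target messages. The miR-193 and miR-365 families are each encoded at a pair of loci that arose by duplication, so that each locus carries a miR-193 and a miR-365 hairpin. Members of the miR-193 family are known to repress growth and survival messages such as MCL1 and CCND1, and miR-193b was described as silenced by promoter methylation in prostate cancer. miR-365 is known for repressing messages of cyclin D1 and interleukin 6.

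Mature sequences are shown because the 3p strands of miR-193a and miR-193b share a seed while their levels differ widely. They are RefSeq sequences on GRCh38.p14, 5′ to 3′, with the seed in capitals, and all 5 members were matched by name.
miR-193a-3p: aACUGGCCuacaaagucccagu
miR-193b-3p: aACUGGCCcucaaagucccgcu
miR-193a-5p: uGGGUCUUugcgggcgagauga
miR-193b-5p: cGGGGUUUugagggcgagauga
miR-365a-3p and miR-365b-3p: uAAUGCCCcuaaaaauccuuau
The miR-193 3p strands differ at 4 of 22 positions, counted from 1 at the 5′ end with the miR-193a base given before the miR-193b base: U9C, A10U, A20G and G21C. All of these lie outside the seed. The 5p strands also differ at 4 positions, U1C, U5G, C6U and C11A, of which U5G and C6U lie inside the seed, so these strands do not share one. Identity between paralogues was 81.8% for either strand.

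The hairpins of the miR-193 pair are shown because the balance of their strands differs between the lines. Capitals mark the 5p and then the 3p mature strand.
MIR193A: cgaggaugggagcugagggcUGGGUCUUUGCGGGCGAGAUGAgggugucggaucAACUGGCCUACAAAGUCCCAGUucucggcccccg
MIR193B: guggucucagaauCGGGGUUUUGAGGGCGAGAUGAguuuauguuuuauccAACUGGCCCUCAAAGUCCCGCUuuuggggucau
On GRCh38, MIR193B lies at chr16:14303967-14304049 and MIR365A at chr16:14309285-14309371, with 5235 bases between them, both on the plus strand. GENCODE 29 places both in introns of the long noncoding RNA gene MIR193BHG, which has 4 transcripts spanning them and no exon over either hairpin. On chromosome 17, MIR193A lies at chr17:31559996-31560083 with no host gene, and MIR365B at chr17:31575411-31575521 in an exon of the noncoding gene AC003101.1. The gap between them is 15327 bases. The authors' build was hg19, so these positions are from the reference and not from the count table.

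Library totals ran from 1742290 to 4327382 counts in PC-3 and from 960421 to 3181344 in 22Rv1. The summed CPM of 5 miRNAs that mark PC-3 (miR-221-3p, miR-222-3p, miR-100-5p, miR-146a-5p and miR-31-5p) was 82950 to 101880 in PC-3 libraries and 57.5 to 154 in 22Rv1 libraries. The sum of 3 that mark 22Rv1 (miR-375, miR-148a-3p and miR-7-5p) was 36580 to 86681 in 22Rv1 and 1059 to 1670 in PC-3. The 6 smooth muscle or stromal markers and 6 blood or serum markers in the table stayed at or below 26.3 CPM, with medians of at most 1.01 CPM for miR-145-5p and 3.73 CPM for miR-451a in either line, apart from miR-486-5p (236 to 2642 CPM) and miR-143-3p. miR-143-3p ran from 10.5 to 480 CPM in 22Rv1. In PC-3 it was at 1365 and 1507 CPM in both PC-3 libraries of replicate 1 at the 5% level, hypoxia and control alike, against 6.46 to 32.9 in the other 22. On the first principal component of 22Rv1, computed without the members, 4 libraries lay more than 3 scaled median absolute deviations from the median: replicate 1 of hypoxia and of normoxia at the 5% level, replicate 1 of hypoxia at 0.5%, and replicate 2 of hypoxia at 0.2%. Values without these libraries are given beside the results they move.

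The hypoxia response was present in both lines. miR-210-3p, the standard hypoxia-induced miRNA, ran from 475 to 811 CPM in PC-3 normoxia and from 886 to 1251 in PC-3 hypoxia. In 22Rv1 it ran from 699 to 1310 CPM in normoxia and from 1339 to 2887 in hypoxia. Its mean log2 difference over the 6 levels was 0.70 in PC-3 and 1.01 in 22Rv1 (adjusted p = 1.1e-07 and 2.8e-09).

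The levels of the members in normoxia differed between strands, loci and lines. miR-193a-3p was the most abundant member in both lines. In PC-3 normoxia its lowest, median and highest levels were 1278, 1761 and 1960 CPM over 12 libraries. In 22Rv1 normoxia they were 50.9, 604 and 766 CPM over 11 libraries. The PC-3 range lay wholly above that of 22Rv1, and the lowest 22Rv1 value was 1 of the libraries that stood apart.

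The other strand of the same hairpin, miR-193a-5p, had the opposite order. It ran from 49.2 to 75.1 CPM (median 61.2) in PC-3 normoxia and from 58.8 to 104 CPM (median 84.7) in 22Rv1 normoxia, and the ranges overlapped. miR-193b-3p ran from 44.9 to 87.1 CPM (median 61.4) in PC-3 and from 7.75 to 31.2 CPM (median 21.1) in 22Rv1, without overlap. miR-365a-3p ran from 30.8 to 56.0 CPM (median 42.0) in PC-3 and from 15.1 to 31.8 CPM (median 24.3) in 22Rv1, with a small overlap.

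miR-193b-5p, the minor strand of its hairpin, was close to the limit of detection. It held 1 to 7 counts per library in PC-3 normoxia and 1 to 13 in PC-3 hypoxia. In 22Rv1 it held 0 to 7 counts in normoxia and 0 to 5 in hypoxia, and 2 of 23 libraries had none. A library with no count allows up to 3 counts of its total, and this limit covers counting error only. The miRNA did not reach 5 CPM in at least 2 libraries of either line and was not tested, so 4 of the 5 members were tested.

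**Figure D1:**
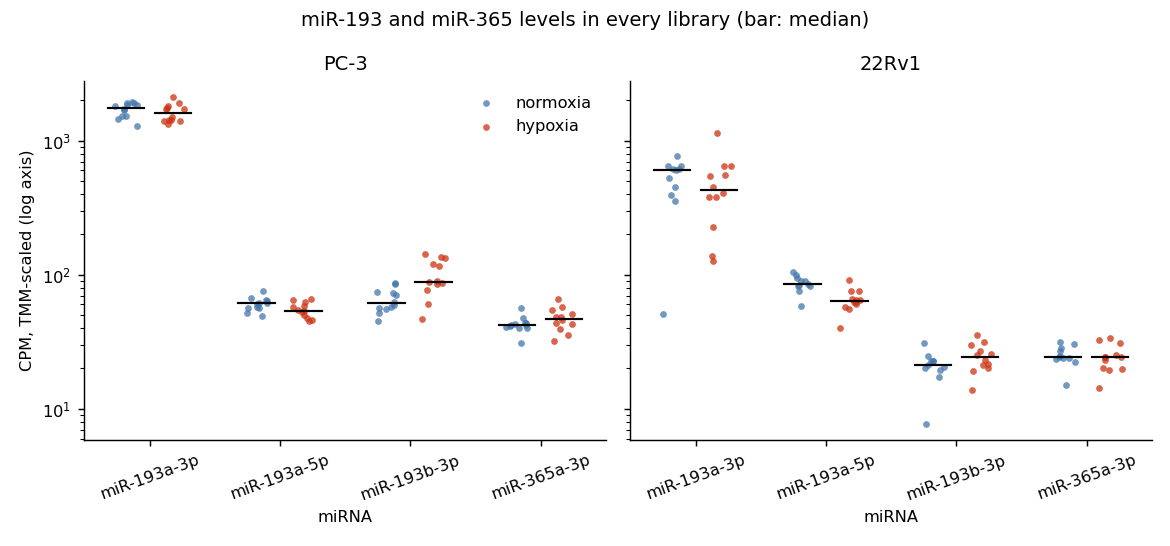
CPM (TMM-scaled, log axis) of the 4 tested members in every library, PC-3 on the left and 22Rv1 on the right, with normoxia in blue, hypoxia in red and a black bar at each median. miR-193a-3p lies far above the other members in PC-3 and spreads over the widest range in 22Rv1, from 50.9 to 1149 CPM.

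The comparison of PC-3 with 22Rv1 in normoxia used edgeR's quasi-likelihood test with Benjamini-Hochberg adjustment over all 613 entries tested, and adjusted p-values given without a test come from it. miR-193a-3p was higher in PC-3 by 1.64 on the log2 scale (SE 0.28, 3.12-fold, adjusted p = 9.7e-06), and by 1.44 without the 22Rv1 libraries that stood apart (adjusted p = 7.4e-12). miR-193b-3p was higher by 1.49 (SE 0.13, 2.81-fold, adjusted p = 2.2e-13). miR-365a-3p was higher by 0.68 (SE 0.10, 1.60-fold, adjusted p = 1.3e-07).

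miR-193a-5p was lower in PC-3, with a log2 difference of -0.62 (SE 0.086, adjusted p = 3.1e-08). All 4 tested members therefore passed, 3 of them higher in PC-3, but 86.0% of all entries tested passed in this comparison, 39.6% higher and 46.3% lower, so a call here does not single out a miRNA. The median log2 difference of all entries was -0.15 with TMM and -0.60 with library size alone, which shifted every member by a like amount. Under library size alone miR-365a-3p differed by 0.21 with an adjusted p of 0.093, and the other 3 members kept their calls and directions.

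The ratio of strands from 1 hairpin is free of scaling. In PC-3 normoxia there were 24.0 to 33.7 counts of miR-193a-3p for each count of miR-193a-5p (median 27.6). In 22Rv1 normoxia there were 0.571 to 9.03 (median 6.69), and the ranges did not overlap. These ratios were computed from counts plus 0.5. With no added count and over both conditions, the 19 22Rv1 libraries that did not stand apart held 3.41 to 9.04 (median 6.96), below every PC-3 library. Of the 4 that stood apart, replicate 2 of hypoxia at 0.2% O2 held 28.8, inside the PC-3 range, so that over both conditions the lines overlapped by this library.

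The mean log2 ratio was 4.81 ± 0.17 (SD, n = 12) in PC-3 and 2.37 ± 1.12 (SD, n = 11) in 22Rv1, a 5.43-fold difference (permutation test, two-sided, 100000 resamples, p = 1e-05, the smallest they can give, adjusted p = 2e-05 over 4 ratios). The control library that stood apart, with the ratio of 0.571, lowered the 22Rv1 mean and so widened this difference. The fold difference without that library was not computed. The strand ratio of the miR-193b hairpin was also higher in PC-3, with a mean log2 of 5.55 ± 0.68 (n = 12) against 4.18 ± 1.41 (n = 11). The permutation test gave an adjusted p of 0.0077, but the 5p strand held 0 to 7 counts in 22Rv1 normoxia. Both ends of the 22Rv1 range, 3.0 and 127, were controls of the 5% level. The ratio of 3.0 was the library that stood apart, and that of 127 a library with 0 counts of miR-193b-5p. The share of miR-193b-3p in the summed counts of the 2 strands with the ACUGGCC seed was low in both lines, 3.68 ± 0.64% (SD, n = 12) in PC-3 normoxia and 4.84 ± 2.99% (n = 11) in 22Rv1 normoxia, or 4.0 ± 1.16% (n = 10) without the control library that stood apart, which held 13.2%. The log2 ratio of miR-193b-3p to miR-193a-3p differed between the lines by -0.28 (permutation test, adjusted p = 0.23).

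The products encoded next to each other were also set against one another. In PC-3 normoxia there were 0.492 to 0.937 counts of miR-365a-3p for each count of miR-193b-3p (median 0.676), and in 22Rv1 normoxia 0.748 to 3.0 (median 1.19). The value of 3.0 was the control library that stood apart, which held 7 counts of miR-193b-3p. With that library included, the log2 ratio was lower in PC-3 by 0.88 (PC-3 minus 22Rv1, -0.88; permutation test, adjusted p = 2e-05). Since miR-365a-3p and miR-365b-3p are identical, this ratio sums the products of both loci.

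**Figure D2:**
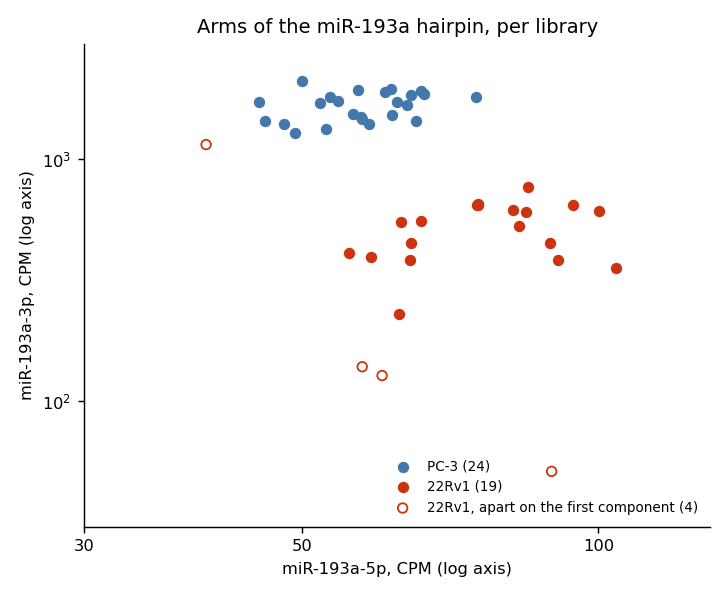
Level of miR-193a-3p (vertical) against miR-193a-5p (horizontal), both in CPM on log axes, with 1 point per library, PC-3 in blue, 22Rv1 in red, and open symbols for the 4 22Rv1 libraries apart on the first principal component. The PC-3 libraries form a band at 1278 to 2108 CPM of miR-193a-3p, while 22Rv1 libraries extend down to 50.9 CPM, with 1 exception at similar or higher miR-193a-5p. The exception, replicate 2 of hypoxia at 0.2% O2, lies at 1149 CPM of miR-193a-3p and 39.9 CPM of miR-193a-5p.

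In PC-3, hypoxia was accompanied by a rise of miR-193b-3p. Its lowest, median and highest levels were 44.9, 61.4 and 87.1 CPM in the 12 normoxia libraries and 47.1, 89.0 and 143.3 CPM in the 12 hypoxia libraries. Hypoxia was higher in 11 of 12 pairs of same-numbered libraries of a level. The ranges overlapped, and 7 hypoxia libraries lay above every normoxia library.

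The mean log2 difference over the 6 levels was 0.60 (SE 0.12, 1.52-fold, adjusted p = 0.00089), beside 0.70 for miR-210-3p. Of the 463 entries tested in PC-3, 5.83% passed in the higher direction and 5.18% in the lower. The same-numbered libraries of a level deviated together in PC-3, and with each pair as a block the difference was 0.59 (adjusted p = 1.1e-07). With that block 109 of the 463 entries passed in either direction, against 51 without it. In 11 of 12 groups miR-193b-3p was higher in replicate 2 than in replicate 1, with medians of 85.4 and 61.5 CPM. Among the 12 normoxia libraries the SD of its log2 CPM was 0.29, rank 21 of 303 entries (median SD 0.15). Within replicate 1 alone the mean difference was 0.43 ± 0.43 on the log2(CPM + 0.5) scale (SD over 6 levels, higher at 5), and within replicate 2 it was 0.67 ± 0.35 (higher at 6). Without both libraries high in miR-143-3p it was 0.60 (adjusted p = 0.0026).

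The difference was above 0 at every level but 2% O2. At 5% O2, miR-193b-3p was at 60.1 and 77.0 CPM in hypoxia and 44.9 and 56.8 in its controls, for replicates 1 and 2. At 2% O2 it was at 47.1 and 85.2 CPM against 62.9 and 74.4, so that hypoxia was lower in 1 pair and higher in the other. At 1% O2 it was at 89.7 and 135 CPM against 57.5 and 87.1.

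The lower levels gave the widest gaps. At 0.5% O2 it was at 115 and 134 CPM against 73.6 and 85.5 in the controls. At 0.2% O2 it was at 86.1 and 143.3 CPM against 51.6 and 70.7. At 0% O2 it was at 88.3 and 121 CPM against 59.8 and 55.8.

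Hypoxia lay wholly above its controls at 5 of 6 levels, which over all entries and levels in PC-3 happened in 14.9% of cases. The log2 differences were 0.47 (SE 0.29) at 5%, -0.02 (SE 0.29) at 2%, 0.65 (SE 0.28) at 1%, 0.67 (SE 0.28) at 0.5%, 0.93 (SE 0.28) at 0.2% and 0.91 (SE 0.28) at 0% O2. With 2 libraries a group, 0 of the 24 tests of members at single levels in PC-3 passed by edgeR, where 0, 0.648, 0.648, 0.864, 1.51 and 2.81% of all entries passed at 5, 2, 1, 0.5, 0.2 and 0% O2. Of the 24, 7 had an unadjusted p below 0.05, and DESeq2 called 2. The matching shares of all entries were not computed, so these counts do not single out the members.

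With the pairs as blocks, miR-193b-3p passed at 4 levels: 1% O2 (adjusted p = 0.0099), 0.5% (0.005), 0.2% (0.00019) and 0% (0.00026). In that fit 1.94, 2.38, 4.75 and 3.24% of entries passed as higher at these levels. At 1 and 0% O2 the same-numbered libraries deviated together with r = 0.36, inside the range between different levels (up to 0.37). The linear trend of miR-193b-3p over the ordered levels was 0.14 log2 per step toward lower O2 (SE 0.068, adjusted p = 0.99, and 0.064 with the pairs as blocks), so that no dependence on the level passed the test.

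miR-365a-3p, encoded beside miR-193b and, as the identical miR-365b-3p, beside miR-193a, differed less. Its lowest, median and highest levels in PC-3 were 30.8, 42.0 and 56.0 CPM in normoxia and 32.3, 47.1 and 66.4 in hypoxia. The mean log2 difference was 0.16 (SE 0.088, adjusted p = 0.24, and 0.093 with the pairs as blocks), higher in 8 of 12 pairs. At 0.2% O2 it was at 48.6 and 66.4 CPM against 30.8 and 47.7 in the controls, a log2 difference of 0.58 (SE 0.21, adjusted p = 0.22, and 0.03 with the pairs as blocks, where 4.75% of entries passed as higher).

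**Figure D3:**
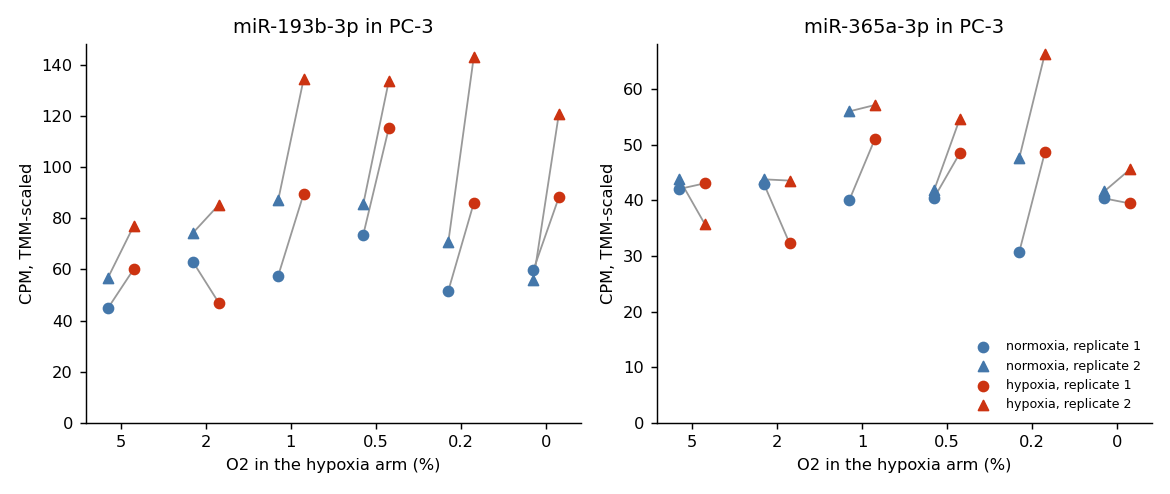
CPM of miR-193b-3p (left) and miR-365a-3p (right) in PC-3 at each O2 level, with normoxia in blue, hypoxia in red, circles for replicate 1, triangles for replicate 2 and grey lines joining same-numbered libraries. For miR-193b-3p 11 of 12 lines slope upward from normoxia to hypoxia, and the exception is replicate 1 at 2% O2.

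The ratios within libraries gave the same contrast without scaling. The log2 ratio of miR-193b-3p to miR-193a-3p was -4.73 ± 0.26 (SD, n = 12) in PC-3 normoxia and -4.10 ± 0.38 (n = 12) in hypoxia. It was higher in hypoxia by 0.63, in 11 of 12 pairs (exact permutation test within levels, two-sided, p = 0.0003, adjusted p = 0.0012 over 8 tests). The share of miR-193b-3p in the summed counts of the shared seed was 3.68 ± 0.64% in normoxia and 5.64 ± 1.26% in hypoxia (SD, n = 12 each), so miR-193a-3p made up nearly all of these counts in either condition.

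The log2 ratio of miR-365a-3p to miR-193b-3p fell in hypoxia by 0.42, from -0.59 ± 0.24 (SD, n = 12) to -1.01 ± 0.29 (n = 12), and was lower in 11 of 12 pairs (exact permutation test, adjusted p = 0.0012). The change of miR-193b-3p and that of miR-365a-3p were thus unequal. The strand ratio of the miR-193b hairpin differed by -0.29 (exact permutation test, adjusted p = 0.53), with 1.30 ± 0.69 CPM of miR-193b-5p in normoxia and 2.76 ± 1.96 in hypoxia (SD, n = 12 each).

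Across the 24 PC-3 libraries, log2 CPM of miR-193b-3p and miR-365a-3p correlated with Pearson's r = 0.75 (permutation test, adjusted p = 0.00024 over 16 relations) and Spearman's rho = 0.70 (adjusted p = 0.0012). Without the 2 libraries farthest from the median of miR-193b-3p, r was 0.64. It was 0.57 among the 12 normoxia and 0.84 among the 12 hypoxia libraries, and 0.69 and 0.70 within replicates 1 and 2. In 22Rv1 the same relation had r = 0.22 (adjusted p = 0.35) and rho = 0.50 (adjusted p = 0.051; permutation test, n = 23), and r was 0.45 without the libraries that stood apart.

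The miR-193a strands did not pass in PC-3. miR-193a-3p was at 1330, 1608 and 2108 CPM (lowest, median, highest) in hypoxia, with a mean log2 difference of -0.04 (SE 0.088, approximate 95% interval -0.21 to 0.13, adjusted p = 0.86). In 11 of 12 groups its level was higher in replicate 2 than in replicate 1, with medians of 1825 and 1450 CPM, a difference larger than that between conditions. The same number of groups was higher in replicate 2 for miR-193b-3p and miR-365a-3p, the latter with medians of 44.7 and 41.3 CPM. miR-193a-5p was at 45.1, 53.9 and 66.0 CPM in hypoxia, with a mean log2 difference of -0.11 (SE 0.061, adjusted p = 0.26).

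The level effects of miR-193a-5p in PC-3 split by O2. They were 0.11, 0.16 and 0.07 at 5, 2 and 1% O2, and -0.33, -0.24 and -0.44 at 0.5, 0.2 and 0%. The trend was -0.12 log2 per step (SE 0.036), but with an adjusted p of 0.27 (0.11 with the pairs as blocks) it did not pass. Of all entries tested in PC-3, 0.216% passed for the trend.

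In 22Rv1 the member that changed was miR-193a-5p, which fell. Its lowest, median and highest levels were 58.8, 84.7 and 104 CPM in the 11 normoxia libraries and 39.9, 63.7 and 90.9 CPM in the 12 hypoxia libraries. It was lower in hypoxia at all 6 levels, with overlapping ranges. Hypoxia was also lower in 10 of 11 comparisons of same-numbered libraries, though in 22Rv1 the numbers were not taken as pairs. The mean log2 difference was -0.47 (SE 0.097, 0.722-fold, adjusted p = 0.0019). Of the 552 entries tested in 22Rv1, 5.98% passed in the lower direction.

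Without the 4 libraries that stood apart the difference of miR-193a-5p was -0.34 (adjusted p = 0.0054). At 2% O2 it was at 75.4 and 75.4 CPM in hypoxia and 89.2 and 104 in its controls. At 1% O2 it was at 64.5 and 63.0 CPM against 83.1 and 100.05. At 0% O2 it was at 62.7 and 55.8 CPM against 58.8 and 82.0, where the groups overlapped.

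Over all levels the log2 differences of miR-193a-5p in 22Rv1 ran from -0.69 at 0.2% O2, where the control is 1 library, to -0.25 at 0%. Of the 24 tests of members at single levels in 22Rv1, 0 passed by edgeR, where 0, 0.362, 0.725, 3.08, 0.906 and 4.71% of all entries passed at 5, 2, 1, 0.5, 0.2 and 0% O2. Of the 24, 3 had an unadjusted p below 0.05, a count whose share over all entries was not computed, and DESeq2 called 0. Without the libraries that stood apart, the differences of miR-193a-5p were -0.15, -0.094 and -0.36 at 5, 0.5 and 0.2% O2. These set 1 hypoxia library against 1 control at 5 and 0.2%, and against 2 controls at 0.5%. At 1% O2, which lost no library, the difference was -0.68 and crossed the threshold in that fit. More of all entries passed there at 1% than in the full set, so the call does not single out this miRNA. The trend of miR-193a-5p over the levels was 0.02 log2 per step (SE 0.057, adjusted p = 0.96), in a test that 0.181% of all entries passed.

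miR-193a-3p, the other strand, varied too much in 22Rv1 for its effect to be measured well. Over all 23 libraries it ran from 50.9 to 1149 CPM, 22.6-fold, and the SD of its log2 CPM, 0.98, was the highest of 307 entries with a mean of at least 20 CPM (median SD 0.27). In PC-3 its SD was 0.20, rank 113 of 303. The mean log2 difference in 22Rv1 was -0.27 (SE 0.37, adjusted p = 0.74). Hypoxia was lower in 8 of 11 comparisons of same-numbered libraries, which were not taken as pairs in this line.

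The 4 libraries that stood apart were also those with the extreme values of this miRNA. They held 138 CPM (hypoxia, 5%), 50.9 CPM (normoxia, 5%), 127 CPM (hypoxia, 0.5%) and 1149 CPM (hypoxia, 0.2%), and their totals were 1035470, 960421, 2031118 and 3181344 counts. Their counts of miR-193a-3p were 144, 46, 238 and 5528, so counting error alone is small beside the gaps. In the other 19 libraries the miRNA ran from 228 to 766 CPM, and the rank of its SD was 17 of 307.

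Without those 4 libraries the mean log2 difference of miR-193a-3p was -0.38 and crossed the threshold, which it did not in the full set. That fit left a single library in some groups. It also called more of all entries than the full set did, so the call does not single out this miRNA. Leaving out the other control of the 5% level, replicate 2, turned the difference to 0.17. Across the 23 libraries its log2 CPM correlated with the first principal component of the other entries at r = 0.98 and rho = 0.91 (permutation test, adjusted p = 0.00016 for either), and at r = 0.93 without the 4 libraries. With the logarithm of the library total it correlated at r = 0.81 (permutation test, adjusted p = 0.00027) and rho = 0.66 (adjusted p = 0.004), at 0.51 without the 2 libraries farthest from the median total, and at 0.32 without the 4 libraries. The part of that component in the values of miR-193a-3p was not tested further.

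**Figure D4:**
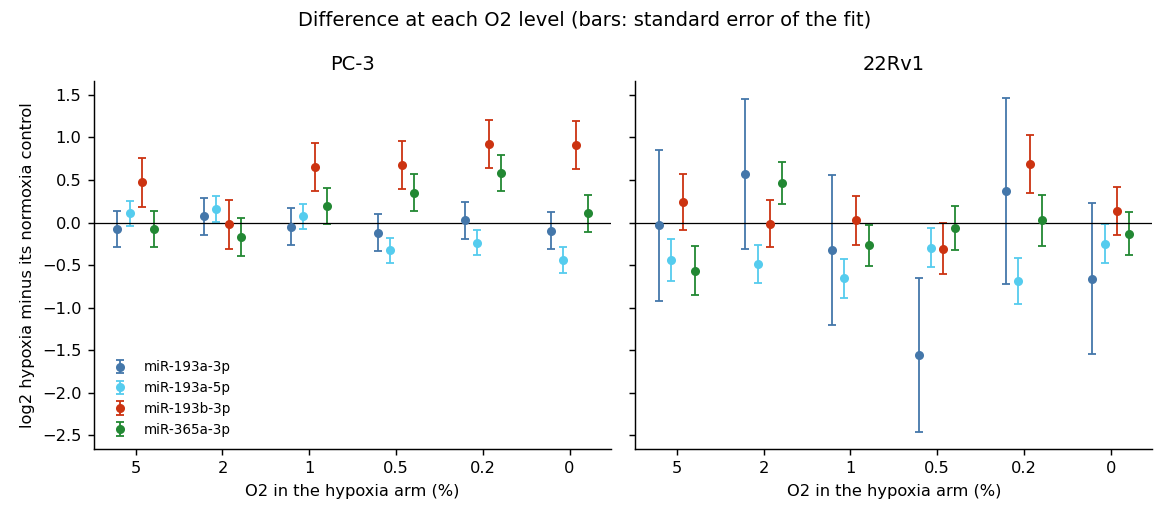
Log2 difference between hypoxia and its own normoxia control (vertical) at each O2 level (horizontal) for the 4 tested members, PC-3 on the left and 22Rv1 on the right, with bars of 1 standard error of the fit. In PC-3 the red points of miR-193b-3p lie above 0 at 5 of 6 levels, and in 22Rv1 the light blue points of miR-193a-5p lie below 0 at all 6, while the bars of miR-193a-3p are the widest.

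The miR-193b and miR-365 members did not pass in 22Rv1. miR-193b-3p was at 7.75, 21.1 and 31.2 CPM (lowest, median, highest) in normoxia and 13.9, 24.2 and 35.7 CPM in hypoxia, with a mean log2 difference of 0.13 (SE 0.12, approximate 95% interval -0.11 to 0.37, adjusted p = 0.56). miR-365a-3p was at 15.1, 24.3 and 31.8 CPM in normoxia and 14.4, 24.4 and 33.6 CPM in hypoxia, with a mean log2 difference of -0.09 (SE 0.11, adjusted p = 0.67), or -0.045 without the libraries that stood apart. Counts per library were 7 to 152 for miR-193b-3p and 15 to 115 for miR-365a-3p. None of the 4 ratios differed between hypoxia and normoxia in 22Rv1 by the exact permutation test, with adjusted p-values of 0.41 to 0.62.

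Whether the lines differed in their response was tested as the difference of their mean effects. For miR-193b-3p the effect in PC-3 exceeded that in 22Rv1 by 0.45 on the log2 scale (SE 0.18, approximate 95% interval 0.11 to 0.80), with an adjusted p of 0.17. With the pairs as blocks the difference was 0.43 and the adjusted p 0.018, and 2.61% of entries passed in this direction in that fit, against 0.489% in the fit without blocks. The numbers were taken as pairs in PC-3, although part of their sharing there was across levels. They were not taken as pairs in 22Rv1, and this difference of the mean effects uses both lines. Its adjusted p with the pairs as blocks therefore rests in part on numbers that were not taken as pairs in 22Rv1.

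For miR-193a-5p the effects differed by 0.34 (SE 0.12, adjusted p = 0.13), and by 0.22 without the libraries that stood apart (adjusted p = 0.26). Leaving out replicate 1 of 22Rv1 hypoxia at 0.2% O2 gave 0.44 and an adjusted p of 0.028. The differences were 0.24 for miR-365a-3p (SE 0.14, adjusted p = 0.48) and 0.21 for miR-193a-3p (SE 0.37, adjusted p = 0.96). Over the full set of libraries, no response of a member was therefore shown to be particular to a line without a block. The block by pair relied on pairs that were not taken as such in 22Rv1.

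The other products of the loci were scarce. miR-365a-5p held 0 to 9 counts per library in PC-3 and 0 to 5 in 22Rv1 and was not tested. Its mean was 0.857 CPM in PC-3 normoxia and 1.98 CPM in PC-3 hypoxia. miR-365b-5p held 5 to 17 counts in PC-3, with a mean log2 difference of 0.11 (adjusted p = 0.81). In 22Rv1 it held 2 to 27 counts, with -0.57 (adjusted p = 0.14). Its highest level there, 18.8 CPM, was in a normoxia library, and without the libraries that stood apart the difference was -0.30 (adjusted p = 0.33). Without replicate 2 of normoxia at 5% O2 it was -0.77 and passed (adjusted p = 0.012). In normoxia it was lower in PC-3 by 0.70 on the log2 scale (PC-3 minus 22Rv1, -0.70; SE 0.21, adjusted p = 0.0028), opposite in sign to miR-365a-3p.

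The miRNAs whose pattern was most like that of each member were taken as those with the highest mean of the within-line Pearson correlations of log2 CPM, among 248 entries with at least 20 CPM in each line. For miR-193a-3p they were miR-183-3p (r = 0.76 in 24 PC-3 libraries and 0.97 in 23 22Rv1 libraries), miR-18a-3p (0.78 and 0.80) and miR-505-3p (0.71 and 0.87). For miR-193a-5p they were miR-20a-5p (0.57 and 0.74), miR-93-5p (0.58 and 0.58) and miR-25-5p (0.64 and 0.52). For miR-193b-3p they were miR-24-2-5p (0.73 and 0.75), miR-320a (0.66 and 0.71) and miR-183-3p (0.67 and 0.66). For miR-365a-3p, after its identical copy miR-365b-3p, they were miR-24-2-5p (0.70 and 0.45) and miR-218-5p (0.60 and 0.38).

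These correlations describe the libraries, whose depth and replicate number the miRNAs share. In 22Rv1 without the 4 libraries apart, the r of miR-193a-3p with miR-183-3p was 0.86 and with miR-505-3p 0.27. The r of miR-193b-3p with miR-183-3p became -0.18 in those 19 libraries.

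A pair of lists gave the setting of the members. Of 25 entries of miRNAs described as silenced by methylation in cancer, 16 were tested in PC-3, where 1 rose, miR-34a-5p, a target of p53 (log2 difference 0.30, adjusted p = 0.025), and none fell. That count is near the 5.83% of all entries that rose in PC-3. In 22Rv1 19 were tested and 5 rose, against 7.61% of all entries, among them miR-152-5p (0.73, adjusted p = 0.00031), miR-152-3p (0.58, adjusted p = 0.0041) and miR-132-5p (0.31, adjusted p = 0.0093), whose call was lost with library size alone (0.24, adjusted p = 0.17). The median log2 difference of this list was 0.04 in PC-3 and 0.18 in 22Rv1, beside -0.0044 and 0.011 over all entries tested. The call of miR-34a-5p was lost (adjusted p up to 0.068) when any of 5 libraries of replicate 2 was left out, those of hypoxia at 5, 2 and 0.2% and of normoxia at 0.5 and 0.2%. It was also lost with the authors' scaling factors (adjusted p = 0.076) and with no filter (0.051).

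Of 19 entries of miRNAs known to share targets with miR-193, 18 were tested in PC-3 and 1 rose, let-7i-5p (0.16, adjusted p = 0.026), beside 5.83% of all entries. All 19 were tested in 22Rv1 and 1 fell, let-7d-5p, with a log2 difference of -0.25 (adjusted p = 0.017), beside 5.98% of all entries. Both counts are near those shares. The call of let-7i-5p was lost (adjusted p up to 0.059) without replicate 1 of hypoxia at 2, 0.2 or 0% or replicate 2 of normoxia at 0.2%, with the authors' scaling factors (0.14) and without the libraries high in miR-143-3p (0.073). That of let-7d-5p was lost (adjusted p up to 0.091) without the normoxia control at 0.2% or replicate 2 of hypoxia at 2%, and with library size alone (0.11). The medians of this list were 0.01 in PC-3 and -0.02 in 22Rv1. The let-7 members named are abundant miRNAs known for repressing growth genes.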

How the data were processed

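Small RNA libraries were made from total RNA (miRNeasy kit, TruSeq Small RNA protocol, 140 to 160 bp gel fraction), per the labels' protocols, and the submitters' processing notes name FastQC and hg19. For alignment and counting, the software is not given in the sources used here. Deposited by the authors were whole-number read counts per mature miRNA and a table of TMM-adjusted CPM. Each column of that table equalled its counts multiplied by a constant for that library (relative difference at most 2.6e-09). Expressed as factors that multiply the library total, and so divide the CPM, the authors' scaling ran from 1.01 to 1.95. Groups and replicate numbers were taken from the labels. Counts of replicates differed by more than sampling noise (chi-square over its degrees of freedom was never under 22.8). Of 1006 entries, 24 formed 9 sets with identical counts.

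Counts were fitted with edgeR 4.0.16 in R 4.3.3 (TMM, robust quasi-likelihood, 1 mean per group) on the entries that reached 5 CPM in 2 or more libraries, which left 463 for PC-3, 552 for 22Rv1 and 613 for the joint fit. The contrasts were each level against its control, their mean, their linear trend and, over both lines, the difference of mean effects and the normoxia levels. The threshold was an adjusted p of 0.05 (Benjamini-Hochberg, all entries tested). Where a group had 1 library, the fit took its spread from the other groups. Printed CPM are TMM-scaled over all 47 libraries. Common biological variation was 15.3% in PC-3 and 17.7% in 22Rv1. Ratios within libraries used counts plus 0.5 and permutation of labels within O2 levels. On simulated counts the fit recovered 91.8% of 1.5-fold and 99.0% of 2-fold changes in PC-3 (464 entries), and 91.8% and 100% in 22Rv1 (547 entries). The simulation gave all entries the same spread and held no outlying libraries. Its rates therefore do not apply to members that varied more, such as miR-193b-3p in PC-3 and miR-193a-3p in 22Rv1.

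Same-numbered hypoxia and normoxia libraries deviated together at all 6 PC-3 levels (r of 0.29 to 0.66), so the labels' numbers were taken as pairs there. Between PC-3 groups of different levels r ran from -0.11 to 0.37. The r within a level lay inside that range at 2% (0.29), 1% (0.36) and 0% O2 (0.36), so part of the sharing was by number across levels. In 22Rv1 r within a level was 0.088 to 0.34 over 5 levels, and the numbers were not taken as pairs. The members and lists were chosen with earlier results of these data known. Named were the members, miR-210-3p, the other products of both loci, the 3 miRNAs most like each member and up to 3 per list and line by smallest p. DESeq2 1.42.0, other scalings, filters, blocks and single omissions were the alternatives. Leaving out the 22Rv1 libraries apart on the first principal component, and the PC-3 libraries high in miR-143-3p, was chosen after seeing the data. Sequences are from RefSeq (GRCh38.p14) and gene models from GENCODE 29.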

Additional observations from a re-analysis of the deposited data

How the results depend on the processing

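Of 32 results on members (mean effects, trends, line differences, normoxia levels and ratios), 24 kept direction and side of the threshold under every alternative run, and 22 under every omission of 1 library; of 48 at single levels, 32 and 29 did. The rise of miR-193b-3p in PC-3 and the fall of miR-193a-5p in 22Rv1 stood under all. The rise was 0.57 to 0.61 over the alternatives and 0.51 to 0.66 over the omissions. For the fall the values were -0.53 to -0.34 and -0.53 to -0.42. The cause of the changes that follow was not tested.

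Calls for the mean effect numbered 51 in PC-3 and 109 with the replicate block by pair. In 22Rv1 they numbered 75, against 46 with library size alone, 164 with the replicate block by pair and 150 without the libraries apart. The line difference had 18 calls, against 7 with library size alone, 11 with a filter of 20 CPM, 35 with the replicate block by number, 61 with the replicate block by pair and 32 without the libraries apart. For miR-193b-3p that difference passed with the block by number (0.45, adjusted p = 0.039) and with the block by pair (0.43, 0.018). Beside the PC-3 levels given above, the block by pair added 1 call in 22Rv1, where the numbers were not taken as pairs, for miR-193a-5p at 1% O2 (-0.64, adjusted p = 0.038). Blocks changed no other call of a member's mean effect, trend or ratio.

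Library size alone ended the call of miR-365a-3p between lines (0.21, adjusted p = 0.093) and turned the 22Rv1 trends of miR-193a-5p (-0.031), miR-193b-3p (-0.00080) and miR-365a-3p (-0.012). Leaving out the libraries apart left a single library in some groups and raised the number of calls over all entries. In that fit miR-193a-3p crossed the threshold in 22Rv1 (-0.38), as did miR-193a-5p at 1% O2 (-0.68). Without these libraries the 22Rv1 ratios turned for miR-193b (-0.016) and miR-193a strands (-0.050).

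Single levels turned as follows. PC-3 miR-193b-3p at 2% O2 was 0.0022 with DESeq2 size factors, 0.066 with the authors' factors, 0.00070 by DESeq2 and 0.0022 without the libraries high in miR-143-3p. With the authors' factors PC-3 miR-193a-3p was -0.11 at 0.2% and miR-365a-3p -0.021 at 0%. In 22Rv1, miR-193a-3p at 5% was 0.0070 by DESeq2, 0.054 with the block by number and 0.31 by pair, and at 0.2% -0.20, -0.65 and, without the libraries apart, -0.63. miR-193b-3p at 5% was -0.032 without the libraries apart, at 2% 0.10 with library size alone, 0.0048 with no filter and 0.00097 with the block by pair, at 1% -0.0028 with DESeq2 size factors and by DESeq2, -0.074 with library size alone and -0.033 with the authors' factors, and at 0% -0.011 with library size alone. miR-365a-3p at 0.2% was -0.00024 by DESeq2.

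Omission of 1 library gave these ranges. In PC-3, miR-193a-3p ran from -0.087 to 0.00022 for the mean, -0.034 to 0.018 for the trend, and -0.25 to 0.074, -0.13 to 0.30, -0.30 to 0.19, -0.29 to 0.019, -0.26 to 0.27 and -0.21 to 0.043 at 5, 2, 1, 0.5, 0.2 and 0% O2. miR-365a-3p ran from -0.24 to 0.041 at 5%, -0.42 to 0.0057 at 2% and -0.053 to 0.48 at 1%, miR-193b-3p from -0.54 to 0.32 at 2%, and miR-193a-5p from -0.069 to 0.21 at 1%. In 22Rv1, miR-193a-3p ran from -0.51 to 0.17 for the mean, -0.52 to 0.056 for the trend, -1.41 to 2.65 at 5% and -0.64 to 0.97 at 0.2%. The 22Rv1 trends ran from -0.010 to 0.055 for miR-193a-5p, -0.11 to 0.084 for miR-193b-3p and -0.011 to 0.081 for miR-365a-3p. miR-193b-3p ran from -0.073 to 1.29 at 5%, -0.20 to 0.27 at 2%, -0.039 to 0.075 at 1% and -0.15 to 0.35 at 0%, and miR-365a-3p from -0.12 to 0.19 at 0.2% and -0.31 to 0.0058 at 0%. The line difference ran from -0.22 to 0.38 for miR-193a-3p and 0.24 to 0.44 for miR-193a-5p, with 9 to 37 calls, and the miR-193a strand ratio in 22Rv1 from -0.093 to 0.56. Depth limits miR-193b-5p most, with 0 to 13 counts per library.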
